A study of Mus musculus with 12 samples.

Results

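Transcripts of 8 genes that mouse oocytes express strongly were followed across 12 libraries: the oogenesins Oog1, Oog2, Oog3 and Oog4, the secreted protein gene Oosp1, the 2′-5′ oligoadenylate synthetase relative Oas1d, the AKT cofactor Tcl1 and the ubiquitin hydrolase Uchl1. They were chosen by name, with earlier results of these data known, and all 8 were among the 24062 genes of the count table. Of these, 7 passed the filter on low counts and were tested, while Oog1 had no count in any library. The libraries came from oocytes of female mice that had eaten a high-fat, high-calorie diet (HFD, n = 6 libraries) or a control diet (CD, n = 6) for 9 weeks. All females ate the control diet during mating with vasectomized males, and oocytes were collected 0.5 days after mating. Each library held 4 pooled oocytes. The labels give no strain, genotype or age, and name both feeds by 1 product code with the HFD as a modified form. They give 6 females per diet but do not tie pools to females. The p-values therefore set the diet difference only against the spread between pools, which may partly be technical.

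A growing oocyte stores messenger RNA that must serve meiosis, fertilization and the first cleavages, because transcription is silent in the fully grown egg. Many of the most abundant stored messages belong to gene families that are expressed almost only in oocytes and have multiplied in rodents. Oogenesins are leucine-rich repeat proteins of the PRAME family (named after a tumour antigen). OAS enzymes make a second messenger of the antiviral response, and OAS1D is known as an oocyte form without that enzyme activity. TCL1 enhances the kinase AKT, UCHL1 is a deubiquitinase abundant in oocytes and neurons, and OOSP1 is a secreted oocyte protein.

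In GENCODE M21 on the mm10 build, Oog4 (143437164 to 143450324, minus strand), Oog3 (144157557 to 144162663, minus) and Oog2 (144190719 to 144196934, plus) lie on chromosome 4. Oog3 and Oog2 point away from each other with 28.1 kb between them. Oog1 (87602688 to 87608850, plus) and Tcl1 (105216750 to 105222793, minus) are on chromosome 12. Uchl1 (66676091 to 66687234, plus) and Oas1d (120914536 to 120921652, plus) are on chromosome 5, and Oosp1 (11667460 to 11691150, minus) is on chromosome 19. All 8 are protein-coding genes, and the counts were summed per gene symbol.

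RefSeq promoter sequences (GRCm38.p6) were found for 7 of the 8 genes, and Oas1d was not matched. The 110 bases before the RefSeq start of the 4 oogenesins are shown because they share a short stretch at a fixed spacing. Capitals mark the E-box CAGCTG and the TATA-like word TATATA, both read on the printed strand.
Oog1 (chr12:87602555-87602664, plus): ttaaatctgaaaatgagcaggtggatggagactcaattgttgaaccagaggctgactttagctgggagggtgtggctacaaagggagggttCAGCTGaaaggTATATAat
Oog2 (chr4:144190607-144190716, plus): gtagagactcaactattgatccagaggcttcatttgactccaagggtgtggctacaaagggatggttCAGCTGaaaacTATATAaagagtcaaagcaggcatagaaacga
Oog3 (chr4:144162652-144162761, minus): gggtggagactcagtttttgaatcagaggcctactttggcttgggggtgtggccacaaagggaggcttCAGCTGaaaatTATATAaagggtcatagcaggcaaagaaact
Oog4 (chr4:143450325-143450434, minus): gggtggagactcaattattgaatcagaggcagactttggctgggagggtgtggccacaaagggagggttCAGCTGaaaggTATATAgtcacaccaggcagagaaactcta

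The longest word that the 250 bases before the start of all 4 oogenesins share is TTCAGCTGAAA. It was found, with both strands searched, in 13 of 27025 genes with a promoter sequence (0.0481%). The E-box starts 19 bases before the RefSeq start in Oog1 and 43, 42 and 41 bases before it in Oog2, Oog3 and Oog4. In each, TATATA begins 11 bases after the first base of the E-box. The Oog1 window ends at base 87602664, while its GENCODE start is 87602688, so its offset depends on the annotation used. CAGCTG alone was present in 14.7% of genes and TATATA in 6.19%, while CAGCTGNNNNNTATATA (both strands) was present in 9 genes (0.0333%). Those 9 were the 4 oogenesins, Gm2042, Gm39804 and the PRAME-family genes Pramel23, Pramel26 and Pramel32. Pramel26 and Pramel32 stand in the count table under the older symbols Gm13084 and C87499. Over the aligned bases, the oogenesin promoters were 76.1% (Oog1 and Oog2) to 83.8% (Oog1 and Oog4) identical. These words were picked from the oogenesin sequences themselves, so a match is a description and not a binding site.

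Oosp1 lacks both words in the 250 bases before its RefSeq start. Its GENCODE start is 11691150 on the minus strand, so most of the printed bases lie inside the GENCODE gene. The Oosp1 sequence is shown for comparison because its level ran against that of Oog2 across libraries. It holds the general E-box form CANNTG, present in 69.3% of genes, at 5 places, of which 3 fall in the printed 110 bases and are in capitals.
Oosp1 (chr19:11691052-11691161, minus): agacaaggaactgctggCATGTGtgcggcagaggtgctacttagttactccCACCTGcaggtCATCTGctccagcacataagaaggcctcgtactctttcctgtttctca

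The depth of the HFD libraries was 8409491 to 13793598 gene counts, and that of the CD libraries 8556396 to 10477316. The 10 oocyte markers (among them Zp1 to Zp3, Gdf9, Nlrp5 and Mos) all passed the filter and together held 2189 to 14795 CPM (counts scaled to a common library size with edgeR's TMM factors) in HFD and 1895 to 12078.5 CPM in CD. Markers of cumulus and granulosa cells summed to 18.2 to 43.5 CPM in HFD and 29.4 to 80.6 CPM in CD, with Amh, Amhr2 and Ptx3 at 0, and blood markers to at most 9.39 CPM, with Hbb-bs, Hbb-bt, Hba-a1, Hba-a2 and Cd3e at 0. Oviduct markers reached at most 28.5 CPM and stromal and endothelial markers at most 146 CPM, in a CD library. HFD library 3 stood apart, with 14755 genes detected against 12229 to 13052 in the other libraries, so each member's fold change is given with and without it. Every count in HFD libraries 1, 2, 4 and 6 was even, and no CD library had this trait. The largest depth, 13793598 gene counts, was that of HFD library 1, so depths may not compare directly. Separately, fewer messages per oocyte cannot be told apart from fewer intact oocytes in a pool.

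Oog1 had 0 counts in all 12 libraries. A count of 0 allows at most 3 counts, which is 0.243 to 0.374 CPM per library and covers counting error only. That limit takes counts to rise in steps of 1. In HFD libraries 1, 2, 4 and 6 every count was even, so the limit there may be too low. The limit applies to reads that the authors' counter could place at Oog1 alone, because reads aligned to more than 1 place were tallied separately. Of the 50-base words in the annotated Oog1 transcripts, 89.0% also occur in transcripts of another gene. The longest Oog1 transcript (2451 nt) is 99.7% identical to that of Gm2042, 98.8% to Gm10436 and 95.4% to C87977. These copies were counted: Gm2042 held 506 to 1918 counts per library, Gm10436 3217 to 16070 counts and C87977 3067 to 28788 counts. So the table does not tell how much Oog1 message the oocytes held, and the part of shared reads in its count of 0 was not tested.

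Read sharing was smaller for the other members. The share of 50-base words also found in another annotated gene was 33.4% for Oog2, 19.7% for Oog3, 0.707% for Oog4, 6.24% for Oas1d and 0 for Oosp1 and Tcl1. Oog2 shares its words mainly with Gm13084 (98.0% identical over the aligned bases), and Oog3 with Gm4350, which is not in the count table under that symbol. Uchl1 shares 12.6%, all with the antisense gene Uchl1os, and as the library chemistry does not mark strand, reads of the pair cannot be told apart. Uchl1os held 91 to 371 counts, against 1736 to 10856 for Uchl1. Over the longest transcript alone, the share was 45.2% for Oog2 and 16.2% for Uchl1. The search covered annotated transcripts and not the genome, and the read length was not used. Reads of Oog2 and Oog3 are therefore uncertain where their copies are alike.

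**Figure D1:**
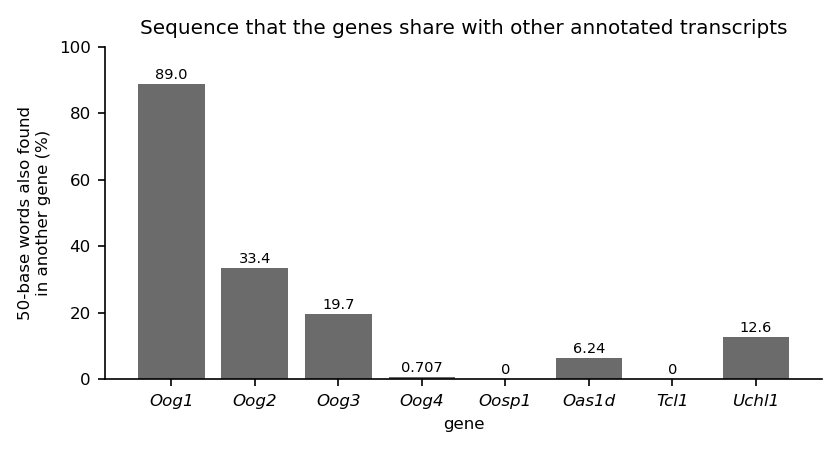
Bars give, for each gene on the x axis, the percentage of the 50-base words of its annotated transcripts that also occur in transcripts of another gene. Oog1 reaches 89.0%, Oog2 33.4%, and Oosp1 and Tcl1 are at 0.

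Tcl1 was the most abundant member and, per transcript length, ranked 2 among the 9486 tested genes with a known length. Dividing CPM by the length of the longest transcript, the mean level over 12 libraries was 10429 ± 3208 CPM per kb (SD, n = 12) for Tcl1. Oog3, next in order and ranked 11, stood at 5800 ± 2344 CPM per kb, below Tcl1 in 12 of 12 libraries. Oas1d followed at 3272 ± 989 CPM per kb (rank 20), again below Oog3 in 12 of 12. Oosp1 stood at 2540 ± 1740 CPM per kb (rank 23), and its order with Oas1d was not stable, since Oas1d was higher in only 7 of 12 libraries. The remaining members were lower, at 543 ± 253 CPM per kb for Oog4 (rank 125), 302 ± 208 for Uchl1 (rank 221) and 150.3 ± 79.8 for Oog2 (rank 450). Oosp1 exceeded Oog4 in 10 libraries, Oog4 exceeded Uchl1 in 11 and Uchl1 exceeded Oog2 in 12. The 8 genes together took 1.99% to 4.22% of all gene counts in HFD libraries and 2.91% to 4.66% in CD libraries.

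**Figure D2:**
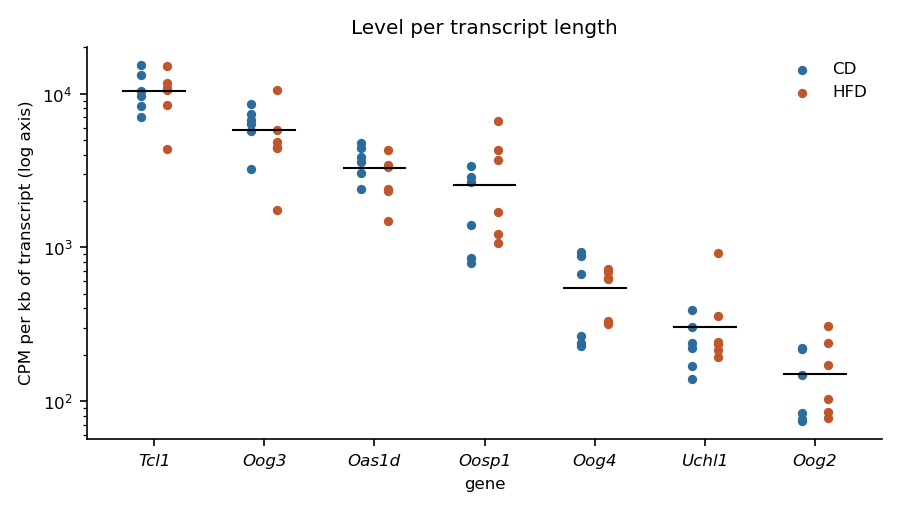
Points show CPM per kb of the longest transcript (log axis) for each of 12 libraries, CD and HFD side by side, and lines show the mean of all 12. Tcl1 lies highest at a mean of 10429 CPM per kb and Oog2 lowest at 150.3, and points of Oas1d and Oosp1 overlap.

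No member differed between the diets by more than the spread between pools. With edgeR's quasi-likelihood test, 0 of the 7 tested members passed an adjusted p of 0.05, as did 0 of all 9935 genes tested (0.000%). An unadjusted p under 0.05 was reached by 0 of 7 members, against 22.3% of all genes (13.4% higher in HFD and 8.89% lower). DESeq2 called 0 of 7 members and 7.59% of all genes. The values of the diets overlapped for all 7 members, while they did not overlap for 2.45% of all genes. Of the members' log2 fold changes (HFD minus CD), 4 were above 0, as for 51.8% of all genes, and 3 below, as for 48.2%. Their median was 0.048 (−0.029 without HFD library 3), beside 0.040 over all genes. Approximate 95% intervals of the log2 fold change were −0.66 to 1.18 for Oog2, −1.04 to 0.54 for Oog3 and −0.85 to 0.94 for Oog4. They were −0.47 to 1.74 for Oosp1 and −0.33 to 1.46 for Uchl1. A 2-fold difference is therefore not excluded for Oog2, Oog3, Oosp1 or Uchl1.

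Among the oogenesins, Oog3 held 3257 CPM in the lowest, 8694 at the median and 19565 CPM in the highest HFD library, and 6016, 12134 and 15914 CPM in CD. HFD library 3 was lowest and HFD library 6 highest, so the CD values lay within the HFD range. The mean was 9884 ± 5370 CPM in HFD against 11749 ± 3336 CPM in CD (SD, n = 6 each), and 5 of 6 HFD libraries lay under the CD mean. This gave a log2 fold change of −0.25 with an SE of 0.35 (edgeR, adjusted p = 0.711). Without HFD library 3 the log2 fold change was −0.085, and without HFD library 6 it was −0.57.

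Oog2, the neighbour of Oog3, ran from 149 through a median of 263 to 589.9 CPM in HFD and from 142 through 220.4 to 425 CPM in CD. HFD libraries 1, 2 and 3 and CD libraries 2 and 4 were high, at 329 CPM or more, and the other 7 lay at 281 CPM or less, so both diets held high and low libraries. The means were 314 ± 179 and 262 ± 134 CPM, or 0.26 ± 0.41 as log2 fold change and SE (edgeR, adjusted p = 0.746), which turned to −0.029 without HFD library 3. Per length, Oog3 exceeded Oog2 by 5.68-fold in HFD library 3 to 102-fold in HFD library 6, with a median of 43.9-fold in HFD and 46.8-fold in CD.

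Oog4 ran from 631 through 1242 to 1429.85 CPM in HFD and from 454 through 929 to 1834 CPM in CD. CD libraries 2, 4 and 5 were high and CD libraries 1, 3 and 6 low, at 524 CPM or less, while HFD libraries 4 and 5 were the low ones of their diet. Its means were 1094 ± 358 and 1058 ± 651 CPM, or 0.048 ± 0.40 as log2 fold change and SE (edgeR, adjusted p = 0.956). The sign of this difference changed when any of HFD libraries 2 or 3 or CD libraries 1, 3 or 6 was left out, giving −0.059 without HFD library 3, so no direction is read from it.

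Oosp1 had the widest spread of the members by the SD of log2 CPM within a diet and by the ratio of highest to lowest library. It ran from 1037 through 2619 to 6398 CPM in HFD and from 765 through 1977 to 3289.55 CPM in CD. HFD libraries 4, 5 and 6 held the 3 highest values of all 12, and HFD libraries 1, 2 and 3 lay within the CD range. The means were 3003 ± 2105 and 1935 ± 1084 CPM, or 0.63 ± 0.50 as log2 fold change and SE (edgeR, adjusted p = 0.476). Without HFD library 3 it was 0.79, without HFD library 4 it was 0.26, and with each library's trend with transcript length removed it was −0.21.

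Oas1d ran from 3007 through 5758 to 8690.2 CPM in HFD and from 4862 through 7522 to 9651 CPM in CD. HFD library 3 was lowest of all 12 and CD library 2 highest. Its means were 5800.4 ± 2022 and 7425 ± 1764 CPM, with 5 of 6 HFD libraries under that of CD, or −0.36 ± 0.27 as log2 fold change and SE (edgeR, adjusted p = 0.465). Without HFD library 3 it was −0.24. An approximate 95% interval of −0.97 to 0.25 does not exclude a 1.5-fold difference.

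Tcl1 ran from 6079 through 15035 to 21211 CPM in HFD and from 9875 through 14043.5 to 21481.5 CPM in CD. HFD library 3 was lowest of all 12, and the highest library of each diet reached nearly the same value. The means were 14250.5 ± 5043 and 14908 ± 4306 CPM, or −0.065 ± 0.29 as log2 fold change and SE (edgeR, adjusted p = 0.915), with an approximate 95% interval of −0.72 to 0.59. It was above 0 without HFD library 3 (0.077), CD library 2 (0.0018) or CD library 4 (0.066).

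Uchl1 ran from 227 through 281 to 1082 CPM in HFD and from 164 through 270.4 to 460.4 CPM in CD. HFD library 3 alone set the HFD mean apart, as the other 5 HFD libraries lay at 420.2 CPM or less, within the CD range. The means were 424 ± 329 and 287 ± 108 CPM, or 0.56 ± 0.40 as log2 fold change and SE (edgeR, adjusted p = 0.428), which was 0.018 without HFD library 3.

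**Figure D3:**
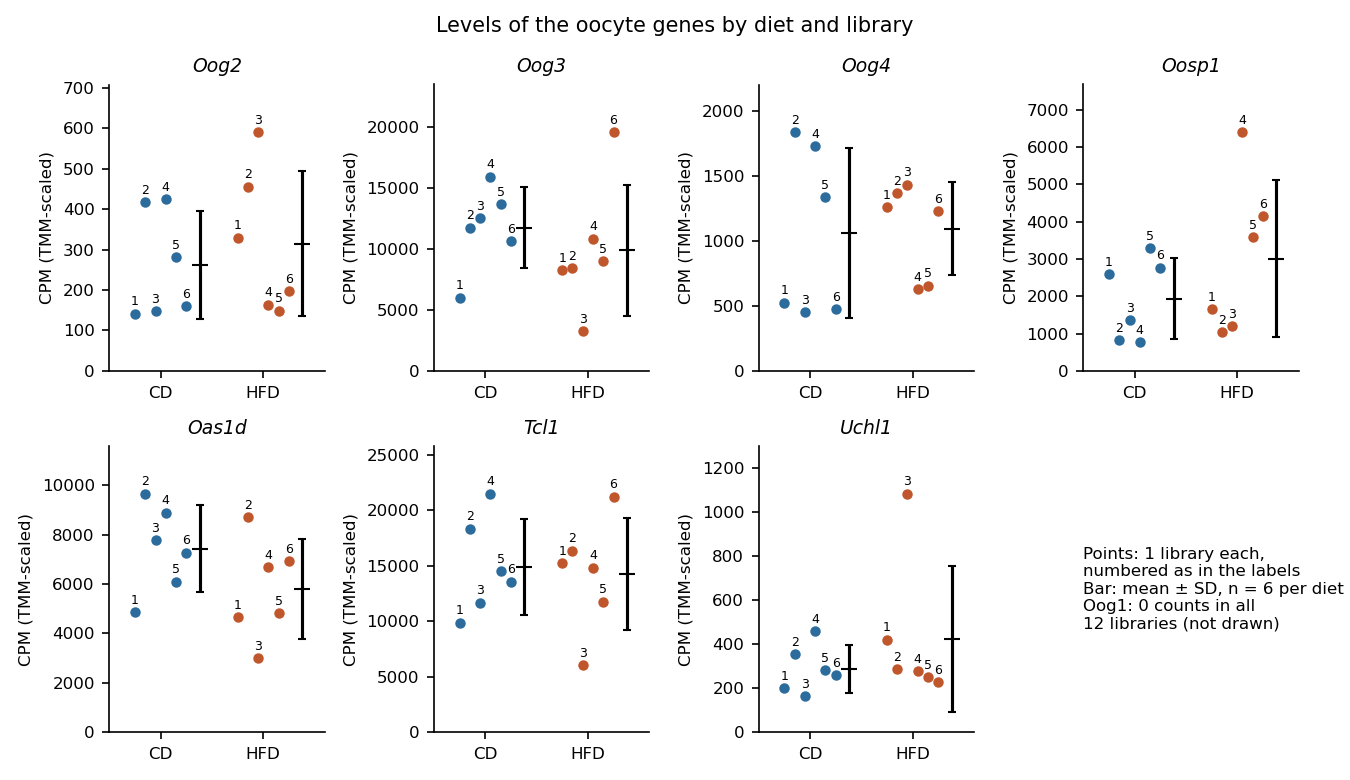
Each panel shows the TMM-scaled CPM of 1 gene in the 6 CD and 6 HFD libraries, numbered as in the labels, with mean ± SD beside each diet. The diets overlap in every panel, and HFD library 3 is the highest library for Oog2 and Uchl1 and the lowest for Oog3, Oas1d and Tcl1.

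The 4 all-even HFD libraries could not be compared with CD libraries of the same kind. With the counts of those 4 libraries halved, the log2 fold changes were 0.26 for Oog2, −0.25 for Oog3 and 0.046 for Oog4. They were 0.63 for Oosp1, −0.36 for Oas1d, −0.071 for Tcl1 and 0.57 for Uchl1, and none passed. Among the 8 libraries with odd counts (2 HFD, of which library 3 is 1, and 6 CD), the log2 fold changes were −0.98 for Oog3, −0.98 for Oas1d, −0.79 for Tcl1, 1.13 for Uchl1, 0.40 for Oog2, 0.27 for Oosp1 and −0.10 for Oog4. None of these passed (edgeR, adjusted p = 0.228 for Oas1d, the smallest). With the length trend removed, all 7 members had a log2 fold change below 0, from −0.57 for Oas1d to −0.081 for Oog2, and none passed (edgeR, adjusted p = 0.408 for Oas1d, the smallest).

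**Figure D4:**
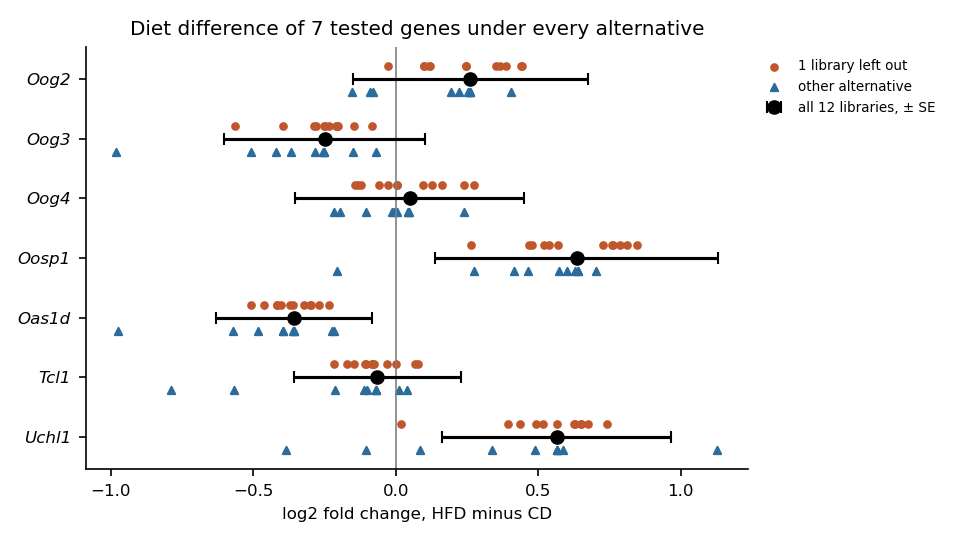
Log2 fold change, HFD minus CD, of the 7 tested genes: black points with all 12 libraries and SE bars, orange points with 1 library left out, blue triangles under the other alternatives. Points of Oog2, Oog4, Oosp1, Tcl1 and Uchl1 fall on both sides of 0, and no setting brought any of the genes past an adjusted p of 0.05.

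Pools of the same diet differed in all 7 tested members. Within a diet, the SD of log2 CPM was 0.46 for Oas1d and 0.53 for Tcl1, at percentiles 12.8 and 21.4 of all 9935 tested genes, whose median was 0.77. It was 0.68 for Oog3, 0.71 for Uchl1, 0.78 for Oog2 and Oog4 and 0.9995 for Oosp1, the last at percentile 67.6. The highest library exceeded the lowest by 8.36-fold for Oosp1, 6.59-fold for Uchl1 and 6.01-fold for Oog3, and by 3.21-fold for Oas1d.

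Oog2, Oog4 and Uchl1 tended to be high in the same libraries. The likeness of the log2 CPM of Oog2 and Oog4 was r = 0.885 (Pearson; Spearman 0.881; n = 12 libraries), 0.929 without the 2 libraries farthest from the Oog2 median and 0.882 after removing the mean of each diet. Uchl1 had r = 0.804 with Oog2 (Spearman 0.902, the highest of all pairs) and 0.623 with Oog4 (Spearman 0.832). Oog3, which carries the same promoter word, had r = −0.27 with Oog2 and 0.069 with Oog4, but without HFD library 3 these were 0.18 and 0.38. Over all 12 libraries Oog3 resembled Tcl1 (r = 0.872, Spearman 0.615) and Oas1d (r = 0.762), and Oas1d resembled Tcl1 (r = 0.799). Those likenesses leaned on HFD library 3, the lowest library for all 3 genes, and without it they were 0.716, 0.516 and 0.592. Tcl1 then also resembled Oog4 (r = 0.804, against 0.345 with that library) and Oog2 (0.691, against 0.024), so the contrast between Oog3 and the other oogenesins in their likeness to Tcl1 rests on that library. Oosp1 ran against Oog2 (r = −0.72, Spearman −0.57, and −0.71 without HFD library 3). All such values are descriptions over 12 libraries that share depth, scaling and preparation, and 21 pairs of members were computed.

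Close relatives were compared in the same way. Gm13084, the near copy of Oog2, followed Oog2 at r = 0.974, and C87977, a PRAME relative, followed Oog2 at 0.917 and Oog4 at 0.913. C87499, which carries the same promoter pattern, followed Oog3 (r = 0.946, and 0.877 without HFD library 3), and had r = −0.28 with Oog2, which was 0.266 without HFD library 3. Oog3 and C87499 share no 50-base word, whereas Oog2 and Gm13084 share 30.1% of those of Oog2, and the part of shared reads in that likeness was not tested. These relatives were chosen after their values were seen.

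The other families showed a similar mixture. Oosp3, which lies in the Oosp family, followed Oosp1 at r = 0.898 (0.962 after removing the diet means), but Oosp2 did so only at 0.170. Tcl1b1, Tcl1b2, Tcl1b3 and Tcl1b4, relatives of Tcl1, followed it at r = 0.755, 0.825, 0.804 and 0.678, and Tcl1b5 at 0.125. Oas1d had r = 0.269 with Oas1e, its 91.1% identical relative, and this became 0.844 without HFD library 3. In that library Oas1d exceeded Oas1e by 1.07-fold per length, against 2.73-fold to 4.31-fold in the other 11. Oas1c and Oas1h had values below 0 with Oas1d, at r = −0.20 and −0.15, which without HFD library 3 were 0.538 and 0.286.

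**Figure D5:**
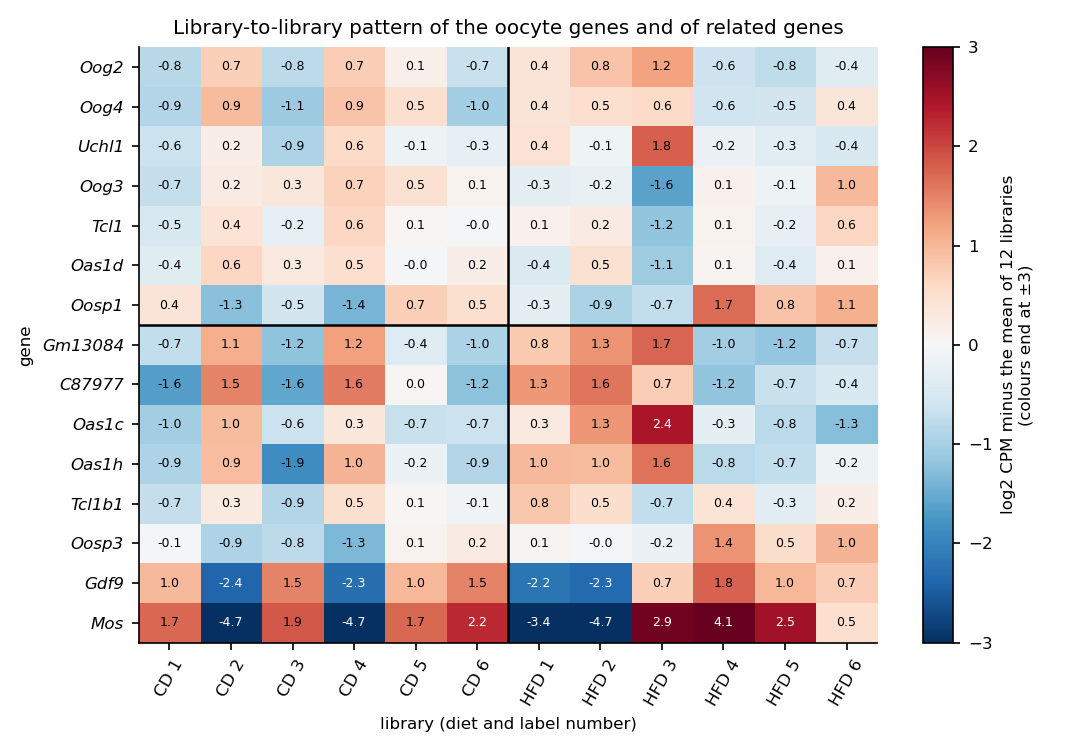
Each cell gives log2 CPM minus the mean of the 12 libraries for a gene (rows) in a library (columns, CD left and HFD right), with colours ending at ±3. Oog2 and Oog4 are high together in CD libraries 2 and 4 and HFD libraries 1 to 3, Oosp1 is at 1651 CPM or less in those libraries, and the lower block shows relatives and the oocyte genes Gdf9 and Mos.

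The pattern of Oog2 and Oosp1 stood beside a difference in other oocyte messages. Mos, the kinase that holds the egg in metaphase, was at 3.84 to 9.40 CPM in HFD libraries 1 and 2 and CD libraries 2 and 4, and at 146 to 1702 CPM in the other 8, and Gdf9 was at 543 to 616 and 4601 to 9642 CPM in the same libraries. In those 4 libraries Oog2 held 329 to 456 CPM, Oog4 1259 to 1834 CPM and Oosp1 765 to 1651 CPM. In the other 8, Oog2 held 142 to 589.9 CPM, Oog4 454 to 1429.85 CPM and Oosp1 1194 to 6398 CPM, so these 3 genes overlapped between them. For Oog2 the overlap came from HFD library 3 alone, as the other 7 libraries lay at 142 to 281 CPM. Uchl1 held 286 to 460 CPM in the 4 libraries low in Mos, 1082 CPM in HFD library 3 and 164 to 281 CPM in the other 7. No test was made, because the 4 libraries were set apart by a measured value, and their part in the spread was not tested.

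Over the 12 libraries, the genes with patterns most like each member, found by Pearson's r of log2 CPM over all tested genes, were as follows. For Oog2 they were Mrps27 (r = 0.976), Htra4 (0.975) and Gm13084 (0.974). For Oog3 they were Cnot7 (0.963), a catalytic subunit of the CCR4-NOT deadenylase, Mospd1 (0.949) and Unc13c (0.947). Oog4 was most like Echdc3 (0.972), 9130401M01Rik (0.965) and 1700028J19Rik (0.954). Oosp1 was most like 2310033P09Rik (0.973), the mitochondrial deoxyguanosine kinase gene Dguok (0.970) and Susd3 (0.968). Oas1d was most like Rrm2 (0.932), a subunit of ribonucleotide reductase, Snx4 (0.926) and 4930507D05Rik (0.924). Tcl1 was most like Asf1b (0.977), a histone chaperone, Fbxo8 (0.976) and the DNA polymerase epsilon subunit gene Pole2 (0.971). Uchl1 was most like its antisense gene Uchl1os (0.953), whose overlapping reads cannot be told apart, then Bloc1s2 (0.952) and Sdhc (0.941). None of these 21 genes differed between the diets with edgeR (adjusted p = 0.138 for Bloc1s2, the smallest).

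Relatives and partners of the members were counted in 8 lists. In none did a gene pass edgeR's adjusted p of 0.05, the background being 0.000%, and DESeq2 called 5 genes, against a background of 7.59% over all genes. At an unadjusted p under 0.05, the background being 13.4% higher and 8.89% lower, the counts are given list by list. PRAME relatives had 8 of 20 genes tested, 4 on each side of 0, with −0.11 as their median (0 higher and 2 lower at the unadjusted p). The smallest p were those of Pramef8 (11.9 CPM in HFD against 25.9 in CD, −1.12 ± 0.46) and Pramef12 (127 and 228 CPM, −0.84 ± 0.36; −0.47 without CD library 3), with edgeR adjusted p = 0.178 and 0.188. All 6 HFD libraries lay under the CD mean for both. The OAS list had 6 of 12 genes tested, 4 above 0, and a median of 0.77 that was 0.23 without HFD library 3 (0 at the unadjusted p). Oasl1 and Oas1f, the smallest p there, had log2 fold changes of 1.12 ± 0.55 and 1.78 ± 0.91 (edgeR, adjusted p = 0.242 and 0.262), which were 0.42 and 0.79 without that library.

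Genes of double-stranded RNA sensing and the interferon response had 7 of 17 tested, 3 above 0 and 4 below, and a median of −0.22 (0 higher, 2 lower). Mavs, the mitochondrial adaptor of RNA sensing, had −1.22 ± 0.50 (edgeR, adjusted p = 0.173; −0.50 without CD library 3) and Stat2 −1.16 ± 0.49 (adjusted p = 0.187). TCL1 relatives and AKT kinases had 12 of 13 tested, 6 on each side of 0, with a median of −0.11 (1 higher, 2 lower). Mtcp1, a TCL1-family gene, stood at 185 ± 64.6 CPM in HFD against 92.7 ± 26.1 CPM in CD, or 0.99 ± 0.29 (edgeR, adjusted p = 0.0968; DESeq2, 0.0283). It was the 1 gene of these lists whose diets did not overlap, against 2.45% of all genes. Rictor, a subunit of the kinase complex that phosphorylates AKT, had −0.98 ± 0.31 (edgeR, adjusted p = 0.105; DESeq2, 0.0421).

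OOSP and PLAC1 relatives had 3 of 4 names in the count table, all tested and all above 0. Their median was 1.65, or 1.19 without HFD library 3 (2 higher, 0 lower). Oosp2 stood at 284 CPM in HFD against 86.5 in CD, or 1.71 ± 0.47 as log2 fold change and SE (edgeR, adjusted p = 0.0929; DESeq2, 0.0139), and 1.19 without HFD library 3, which held 712 CPM. Oosp3 stood at 2274 and 1198 CPM, 0.93 ± 0.35 (edgeR, adjusted p = 0.145). For both, 6 of 6 HFD libraries exceeded the CD mean, and for Oosp1 3 of 6 did. The UCH and ubiquitin genes had 8 of 8 tested, 7 above 0, and a median of 0.95, or 0.64 without HFD library 3 (4 higher, 0 lower). Uchl4 had 1.78 ± 0.46 (edgeR, adjusted p = 0.0913; DESeq2, 0.00592).

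Ras and Ral signalling genes, included because the OOG1 protein is known to bind Ras and a Ral exchange factor, had 6 of 9 tested, 5 above 0 and a median of 0.80, or 0.39 without HFD library 3 (2 higher, 0 lower). Rala had 0.89 ± 0.34 (edgeR, adjusted p = 0.150) and Hras 1.77 ± 0.79 (adjusted p = 0.205), which was 0.29 without HFD library 3. Oocyte transcription factors had 6 of 8 tested, 2 above and 4 below 0, and a median of −0.28 (0 higher, 1 lower). Taf4b had −1.15 ± 0.47 (edgeR, adjusted p = 0.170) and Sohlh2 −0.45 ± 0.42 (adjusted p = 0.568).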

How the data were processed

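The deposited table holds whole-number read counts per gene symbol for 12 libraries of 4 pooled mouse oocytes, not normalised. Per the submitters' processing notes, STAR, HTSeq 1.0.0, DESeq2 1.0.19 and build mm10 were used. Not given in the sources used here were the annotation and counting options. The 5 tally lines were kept out of sizes and tests. They held 66.5% to 72.9% of tallied reads per HFD library and 62.3% to 66.6% per CD library. Reads aligned to more than 1 place were 26.8% to 35.7% in HFD and 18.6% to 26.5% in CD, so the diets did not overlap. The effect of this on members with near copies was not tested.

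Counts as deposited were tested with edgeR 4.0.16 (R 4.3.3; TMM, default low-count filter, robust quasi-likelihood F-test, diet only), adjusted by Benjamini-Hochberg over 9935 genes. Standard errors come from the F statistic, and log2 CPM used a prior count of 2. Alternatives used DESeq2 1.42.0, limma 3.58.1 and the settings of the closing section. On simulated counts for HFD against CD, 200 genes were changed at each fold. Of those that passed the filter, edgeR recovered 0% at 2-fold (9643 genes tested), 51.9% at 4-fold (9671) and 80.7% at 8-fold (9647). False calls were 0, 3 and 4. Libraries of a diet differed by at least 27.7 chi-square units per degree of freedom, so none is a copy. Lengths and coordinates came from GENCODE M21 (22750 of 24062 symbols matched), promoters from RefSeq. Named genes were the members, genes past the threshold or the 2 smallest p per list, and the 3 most like each member. A gene that this rule names is not reported here. Members and lists were chosen with earlier results of these data known.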

Additional observations from a re-analysis of the deposited data

Results flagged for a closer look

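Uchl1 in HFD library 3 stood at 1082 CPM, and its gap to the next HFD library, at 420.2 CPM, was 0.774 of the whole HFD range, above Dixon's 95% critical value for 6 samples. Chance marks about 1 in 20 groups, and 14 groups (7 genes in each diet) were examined. Uchl1os, the overlapping antisense gene, was also highest there, at 37.0 CPM, and ranged from 8.60 to 24.0 CPM elsewhere.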

How the results depend on the processing

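None of the 7 genes passed an adjusted p of 0.05 under any of the 22 alternatives. Oog3 and Oas1d kept a log2 fold change below 0 in all 22. With 1 library left out, the ranges were −0.029 to 0.44 for Oog2, −0.57 to −0.085 for Oog3, −0.14 to 0.27 for Oog4, 0.26 to 0.85 for Oosp1, −0.51 to −0.24 for Oas1d, −0.22 to 0.077 for Tcl1 and 0.018 to 0.74 for Uchl1. Oog4 turned to −0.014 with total counts only, −0.0053 with no filter and −0.10 in libraries with odd counts. With limma-voom and sample quality weights together Oog2 turned to −0.091 and Tcl1 to 0.040. Without HFD and CD library 3 together, Oog2 was −0.15, Oog4 −0.22, Tcl1 0.012 and Uchl1 −0.10. With the length trend removed, Oog2 was −0.081, Oog4 −0.20, Oosp1 −0.21 and Uchl1 −0.39. The cause was not tested. Over all genes edgeR called 0 (2215 at an unadjusted p under 0.05), DESeq2 754 (480 higher, 274 lower), limma-voom with those weights 35 (32 higher, 3 lower) and edgeR 456 in the libraries with odd counts (454 higher, 2 lower). In the related lists DESeq2 called 5 genes and edgeR 4 in the libraries with odd counts. Total counts shifted the median over all genes by −0.11. Same-numbered libraries of the diets deviated together in 3 of 6 pairs (correlation above 0.1), and 2 of 6 HFD libraries correlated best with their own number, so the numbers were not taken to pair the pools. With the replicate block the log2 fold changes were 0.22 for Oog2, −0.37 for Oog3, 0.24 for Oog4, 0.46 for Oosp1, −0.39 for Oas1d, −0.11 for Tcl1 and 0.34 for Uchl1, and 0 genes were called.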
